A study of Saccharomyces cerevisiae with 6 samples.

Results

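Aminoacyl-tRNA synthetases join each amino acid to its transfer RNA, and so supply the substrates that the ribosome uses. Yeast carries a cytosolic set and, for most amino acids, a separate nuclear-encoded enzyme that is imported into mitochondria to serve the translation of the mitochondrial genome. A few genes, among them ALA1, GRS1, HTS1 and VAS1, supply both compartments from 1 gene. Uncharged tRNA activates the kinase Gcn2, which raises translation of GCN4, and Gcn4 in turn activates genes of amino acid synthesis, so the synthetases stand close to the signal that controls this factor.

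The genes described here were 34 named aminoacyl-tRNA synthetase genes, 21 cytosolic and 13 mitochondrial, taken from a list of gene names with no threshold on their values. A probe set was named for 33 of them among 5449 tested genes, each on a single probe set. The exception was YNL247W (CRS1), the cysteine enzyme, which was not analysed here, so 20 cytosolic and 13 mitochondrial genes follow. The samples were 3 samples of a Saccharomyces cerevisiae strain with GCN4 deleted and 3 of the prototrophic wild-type strain FY4. Both were grown in batch in minimal medium with glucose and taken in exponential phase. The labels name no other allele and do not say from which strain the deletion was made or whether replicates were separate cultures. P-values therefore measure only the spread between these 6 arrays, which may be technical. The comparison addressed which transcript levels differ between the deletion strain and FY4.

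The genotype was checked on GCN4 itself. Its intensity was 18.5, 22.3 and 18.1 on the deletion arrays, against 23339, 18826 and 20142 on the wild-type arrays. The deletion arrays lay below the background level, taken as the 95th percentile of probe sets for another yeast, so GCN4 was at least 283-fold lower in the deletion (limma adjusted p = 2.94e-07). All 33 synthetase probe sets lay above that level on 6 of 6 arrays. The median intensity over all genes was 2281 to 2341 on deletion arrays and 2112 to 2206 on wild-type arrays. The median log2 change over all genes, deletion minus wild-type, was accordingly 0.09, and centring each array on its median moved it by -0.10, to -0.02. Changes of the size found among the synthetases therefore have to be read against this shift.

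One array stood apart for the cytosolic enzymes. Deletion replicate 3 gave the highest of the 3 deletion values for 20 of 20 cytosolic genes, against 44.1% of all genes. Wild-type replicate 3 gave the highest wild-type value for 15 of 20, against 36.9% of all genes. The median log2 level of the cytosolic set was 13.39, 13.40 and 13.51 on the deletion arrays, and 13.42, 13.45 and 13.47 on the wild-type arrays. The mitochondrial set did not share this, with deletion replicate 3 highest for 6 of 13 genes and wild-type replicate 3 for 3 of 13.

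**Figure D1:**
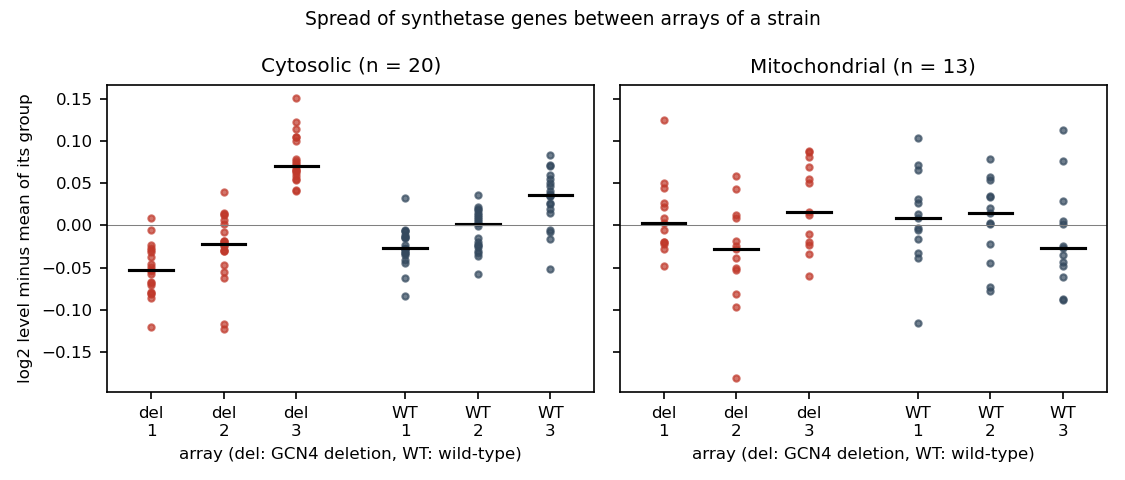
Log2 level of each synthetase gene on each array minus the mean of its strain (y axis), for 20 cytosolic genes (left panel) and 13 mitochondrial genes (right panel); points are genes, black bars are medians, red marks GCN4 deletion arrays and dark blue wild-type arrays. All 20 cytosolic points of deletion array 3 lie above the strain mean, while the mitochondrial points scatter to both sides on every array.

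Among the cytosolic enzymes, levels in the deletion were close to those of the wild-type. ILS1, which charges isoleucine, was the only 1 of 20 that fell, by 1.23-fold. None rose, and 19 did not pass the test. Across all genes, 32.2% were called in either direction, 7.67% lower and 24.6% higher, at an adjusted p under 0.05 (limma, Benjamini-Hochberg over all genes). At an unadjusted p under 0.05, 2 cytosolic genes were lower and 2 higher, where 10.9% and 32.0% of all genes were. The median log2 change of the set was -0.01, against 0.09 for all genes, and 2 of the 20 genes lay above the median of all genes. Among the 698 other genes within the same range of mean log2 levels, 12.6 to 14.0, the median log2 change was 0.04, with 10.9% called lower and 14.3% higher (this range was chosen after the values were seen). Without deletion replicate 3 the median of the set was -0.06, with 1 gene, ILS1, still lower and 0 higher. After each array was centred, 3 cytosolic genes, ILS1, FRS2 and DED81, were called lower, where 12.9% of all genes were. The median of the set was then -0.11, against -0.02 for all genes and -0.07 for the 698 other genes of the same level range. Of the 20 log2 changes 18 were negative, as were 2899 of 5449 over all genes.

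ILS1 had intensities of 9249.8, 9849 and 10221 on the deletion arrays, against 11775, 12023 and 12209 on the wild-type arrays. All deletion values lay below all wild-type values. Its log2 level was 13.25 ± 0.07 in the deletion and 13.55 ± 0.03 in the wild-type (SD, n = 3 each), a log2 change of -0.30 with a standard error of 0.05 (adjusted p = 0.00787 by limma). The call held under 16 of 16 alternative settings, with adjusted p of 0.00373 to 0.0305. After centring the log2 change was -0.40.

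**Figure D2:**
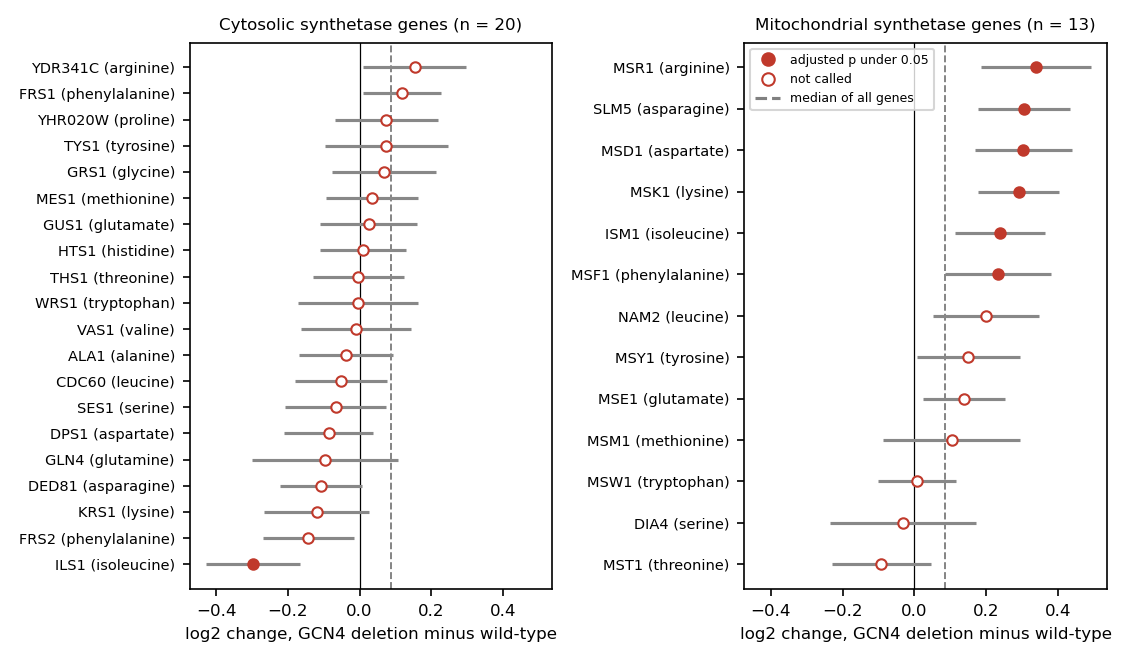
Log2 change (x axis, GCN4 deletion minus wild-type) of 20 cytosolic (left) and 13 mitochondrial (right) synthetase genes, with 95% confidence intervals from limma as bars; filled points passed an adjusted p under 0.05 and the dashed line is the median of all genes, 0.09. ILS1 at -0.30 is the filled point of the left panel, and 6 points of the right panel between 0.23 and 0.34 are filled.

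Phenylalanyl-tRNA synthetase has 2 kinds of subunit, each on its own probe set. FRS2, the alpha subunit, had intensities of 7233, 7537 and 7821 in the deletion, against 8495, 8417 and 8019 in the wild-type. FRS1, the beta subunit, had 11275, 11311 and 11795 in the deletion, against 10507, 10417 and 10758 in the wild-type. The groups did not overlap for either gene, with the deletion arrays below for FRS2 and above for FRS1, and neither passed the test (log2 changes of -0.14 and 0.12, limma adjusted p = 0.0857 and 0.0965). FRS2 passed as lower after centring (adjusted p = 0.0236), quantile normalization (0.0213), cyclic loess (0.0461) or with array weights (0.0249), whereas FRS1 after centring had a log2 change of 0.01 (adjusted p = 0.889). The log2 difference between the subunits' probe sets, FRS1 minus FRS2, was 0.61 ± 0.03 in the deletion and 0.35 ± 0.07 in the wild-type (SD, n = 3 each). It was higher on all 3 deletion arrays than on all 3 wild-type arrays, a contrast picked after the values were seen and given without a test.

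DED81, which charges asparagine, and YHR020W, which charges proline, lie next to each other and are transcribed away from each other. DED81 had intensities of 12984, 12986 and 13801 in the deletion, against 14223, 14431.5 and 14207 in the wild-type. The groups did not overlap, and the log2 change of -0.11 did not pass (adjusted p = 0.132). After centring it passed, at -0.21 (adjusted p = 0.0367), and with array weights (adjusted p = 0.0482). YHR020W had 10287, 10720.4 and 11365 in the deletion, against 9994, 9982 and 10751 in the wild-type. Its groups overlapped, with a log2 change of 0.07 (adjusted p = 0.393).

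YDR341C, the arginine enzyme, had the highest log2 change of the cytosolic set, 0.15. Its intensities were 12725, 12681.5 and 14159 in the deletion, against 11756, 11651 and 12131 in the wild-type. The groups did not overlap, but the change did not pass (adjusted p = 0.10). With the replicate number as a block it was the 1 cytosolic gene called higher (adjusted p = 0.0373), where 35.3% of all genes were. After centring its log2 change was 0.05 (adjusted p = 0.669).

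KRS1, the lysine enzyme, whose mutation in the gcd5 allele raises GCN4 expression, had a log2 change of -0.12 with overlapping groups (adjusted p = 0.183). GLN4, for glutamine, had -0.10 with the widest interval of the set, -0.30 to 0.11. DPS1, for aspartate, SES1, for serine, and CDC60, for leucine, had log2 changes of -0.09, -0.07 and -0.05. MES1 and GUS1, for methionine and glutamate, whose products form a complex with the cofactor Arc1, had 0.03 and 0.03. THS1, WRS1 and TYS1, for threonine, tryptophan and tyrosine, had -0.003, -0.005 and 0.07. The 4 measured genes that supply both compartments, ALA1, GRS1, HTS1 and VAS1, had log2 changes of -0.04, 0.07, 0.01 and -0.01. None of these 14 passed the test, and their 95% intervals reached from -0.30 to 0.25, so smaller differences than that are not resolved for every gene. For the groups as a whole, 15 of 20 cytosolic genes overlapped between strains, 3 were lower and 2 higher without overlap, where 12.6% and 34.9% of all genes were lower and higher without overlap.

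The mitochondrial enzymes were higher in part. Of 13 genes, 6 rose, between 1.18-fold and 1.26-fold, 0 fell, and 7 did not pass. At an unadjusted p under 0.05, 9 were higher and 0 lower by limma, where 32.0% and 10.9% of all genes were. The share called higher was 46.2%, where 24.6% of all genes were called higher. The median log2 change was 0.20, against 0.09 for all genes, and 10 of 13 genes lay above the median of all genes. Among the 1862 other genes within the same range of mean log2 levels, 10.1 to 11.4, the median log2 change was 0.10, with 6.71% called lower and 24.7% higher. The number of calls depended on scaling. It was 3 after centring (where 14.3% of all genes were higher), 4 after cyclic loess (15.9%) and 1 after quantile normalization (12.7%).

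MSR1, the mitochondrial arginine enzyme, had the highest log2 change, 0.34 ± 0.06 (standard error, limma adjusted p = 0.00875). Its intensities were 1423, 1399 and 1535 in the deletion, against 1172, 1194 and 1079 in the wild-type. SLM5, for asparagine, had 1240.1, 1205 and 1149 in the deletion, against 965, 1006 and 937 in the wild-type, a rise of 1.24-fold (adjusted p = 0.00683). In both genes every deletion array lay above every wild-type array. Each lost its call in 1 of 16 alternatives, quantile normalization (adjusted p = 0.0664 and 0.0646).

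MSD1, for aspartate, had intensities of 2285, 2236 and 2429 in the deletion, against 1961, 1847 and 1819 in the wild-type, and rose 1.23-fold (adjusted p = 0.00841). It did not pass after centring (adjusted p = 0.0656) or quantile normalization (adjusted p = 0.0569). MSK1, for lysine, had 3005, 2864.5 and 2874 in the deletion, against 2406, 2417 and 2325 in the wild-type. It rose 1.22-fold (adjusted p = 0.00478), and of the 6 genes that rose it alone kept its call in 16 of 16 alternatives. The MSK1 product also takes part in the import of a cytosolic lysine tRNA into mitochondria.

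ISM1, for isoleucine, had intensities of 1294, 1237 and 1282 in the deletion, against 1132, 1045 and 1057 in the wild-type, and rose 1.18-fold (adjusted p = 0.0158). Its groups did not overlap, but the call ended in 6 of 16 alternatives. The adjusted p was 0.0609 without deletion replicate 1, 0.0513 when wild-type replicate 2 was dropped, and 0.0797 with neither array numbered 3. Centring gave a log2 change of 0.14 (adjusted p = 0.161). It was 0.08 by quantile normalization, at an adjusted p of 0.402, and 0.12 by cyclic loess, at 0.174. MSF1, for phenylalanine, had 1259, 1355 and 1293 in the deletion, against 1114, 1169 and 1043 in the wild-type, and rose 1.18-fold (adjusted p = 0.0294). The groups were again apart. The MSF1 call was the least stable of the 6, kept in 6 of 16 alternatives and lost on leaving out wild-type replicate 1 or 3 or any deletion array (adjusted p between 0.0586 and 0.0989). Its log2 change of 0.23 was 0.13 under centring (adjusted p = 0.15). By quantile normalization it was 0.08, at an adjusted p of 0.325, and by cyclic loess 0.12, at 0.169.

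**Figure D3:**
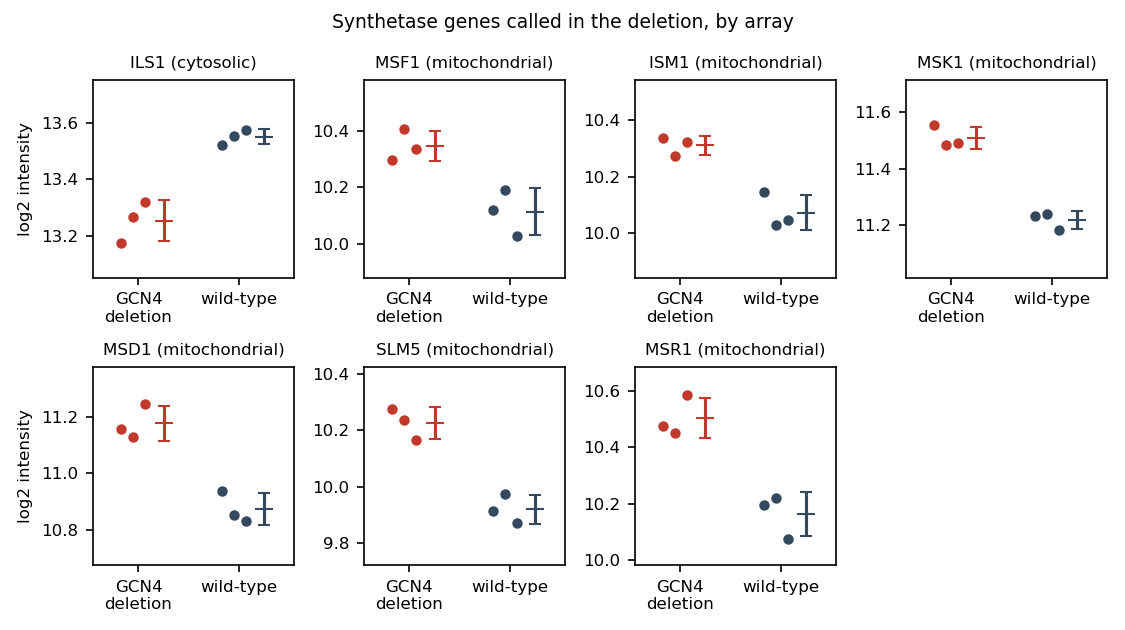
Log2 intensity (y axis) of the 7 synthetase genes called in the deletion, for 3 GCN4 deletion arrays (red, left) and 3 wild-type arrays (dark blue, right) in each panel, with the mean and SD beside the points; every panel spans the same log2 range. The deletion points lie below the wild-type points in the ILS1 panel and above them in the other 6.

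For 3 further mitochondrial genes the groups did not overlap and the test was missed. In all, 9 of 13 mitochondrial genes were higher without overlap and 0 lower, where 34.9% and 12.6% of all genes were. NAM2, the leucine enzyme, which also acts in the splicing of mitochondrial introns, had intensities of 1617, 1533 and 1723.5 in the deletion, against 1439, 1448 and 1354 in the wild-type (log2 change 0.20, limma adjusted p = 0.0503). MSE1, for glutamate, had 1465, 1530.1 and 1462 in the deletion, against 1312, 1380.1 and 1354 in the wild-type (log2 change 0.14, limma adjusted p = 0.0677). MSY1, for tyrosine, had 1227, 1208 and 1237 in the deletion, against 1184, 1045 and 1084 in the wild-type (log2 change 0.15, limma adjusted p = 0.104). All 3 were thus higher in the deletion on every array. NAM2 passed in 3 of 16 alternatives. With the replicate number as a block, NAM2 (adjusted p = 0.0482) and MSE1 (adjusted p = 0.0349) passed as well, which made 8 of 13 higher with the block, where 12.2% of all genes were lower and 35.3% higher in that fit.

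The other 4 mitochondrial genes overlapped between strains. MSM1, for methionine, and MSW1, for tryptophan, had log2 changes of 0.10 and 0.01. DIA4, for serine, had -0.03, with deletion values of 1159, 938 and 1105 on either side of the wild-type values of 1075, 1097 and 1088. MST1, for threonine, had the lowest log2 change of the mitochondrial set, -0.09 (adjusted p = 0.273). By the structural class of the catalytic domain, 4 of 6 mitochondrial enzymes of class II and 2 of 7 of class I rose, where 24.6% of all genes did. After quantile normalization the counts were 1 for class II and 0 for class I, where 12.7% of all genes were called higher. Whether the classes differ was not tested.

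Cytosolic and mitochondrial enzymes for the same amino acid were set side by side in 14 pairs over 13 amino acids, with FRS1 and FRS2 each set against MSF1. The log2 difference between the probe sets of a pair was taken on each array, so a shift that moves all genes of an array alike cancels. In 13 of 14 pairs it was lower in the deletion than in the wild-type, with a median change of -0.15. In 7 pairs the deletion and wild-type arrays did not overlap, all with the deletion lower. Within same-numbered arrays, 9 of 14 pairs were lower in the deletion for 3 of 3 numbers. The share of such differences among pairs of other genes was not computed. These counts therefore do not show that the synthetase pairs differ from other pairs of a bright and a dim gene. With 3 arrays against 3 the exact two-sided permutation test cannot go below p = 0.10, and no pair passed (smallest adjusted exact p = 0.20 over the 14 pairs). The change of the ratio is the measurement here, since the levels of different probe sets cannot be compared.

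The isoleucine pair changed most. ILS1 minus ISM1 was 2.84, 2.99 and 2.995 on the deletion arrays, against 3.38, 3.52 and 3.53 on the wild-type arrays, a change of -0.54 with a standard error of 0.07. The lysine pair, KRS1 minus MSK1, gave 1.95, 1.99 and 2.15 in the deletion, against 2.42, 2.39 and 2.52 in the wild-type. The asparagine pair, DED81 minus SLM5, gave 3.39, 3.43 and 3.59 in the deletion, against 3.88, 3.84 and 3.92 in the wild-type. In these 3 pairs the cytosolic member had a negative and the mitochondrial member a positive log2 change. The signs were the same for DPS1 and MSD1, FRS2 and MSF1, and CDC60 and NAM2. They were also the same for WRS1 and MSW1, at -0.005 and 0.008.

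The changes of the ratio were -0.41 for both the lysine and the asparagine pair, -0.39 for aspartate (DPS1 and MSD1), -0.38 for FRS2 with MSF1, -0.25 for leucine (CDC60 and NAM2) and -0.19 for arginine (YDR341C and MSR1). In the arginine pair both members had positive log2 changes, 0.15 and 0.34. The 7 pairs with overlapping arrays had changes between -0.12 and 0.09, and threonine (THS1 and MST1) was the 1 pair with a positive change. A normalization that treats bright and dim probe sets differently altered this pattern. After quantile normalization 7 of 14 ratios were lower, with a median change of -0.03, and after cyclic loess 9 of 14, with a median of -0.05. As deposited, other genes in the level ranges of the cytosolic and mitochondrial sets had median log2 changes of 0.04 and 0.10. The part of such a brightness effect in the pair differences was not tested.

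**Figure D4:**
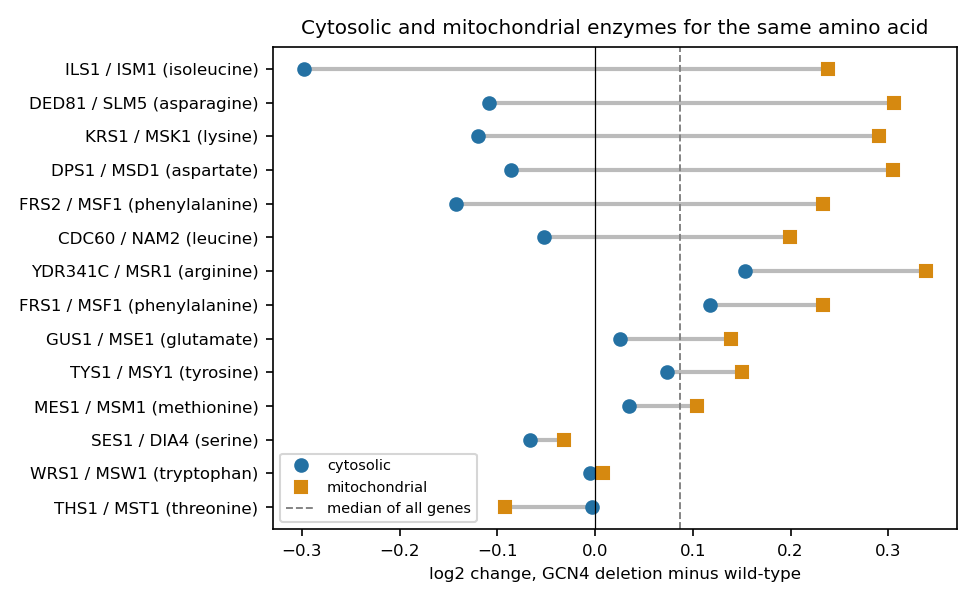
Log2 change (x axis, GCN4 deletion minus wild-type) of the cytosolic (blue circles) and mitochondrial (orange squares) member of 14 enzyme pairs, ordered by the difference between them; the dashed line is the median of all genes, 0.09. The circle lies left of the square in 13 pairs, by 0.54 for ILS1 and ISM1, and right of it for THS1 and MST1.

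Genes that act with the synthetases were read from 5 lists. Of 9 charging partners 1 rose, or 11.1%, where 24.6% of all genes did. It was HER2, a subunit of the mitochondrial amidotransferase that turns glutamate on glutamine tRNA into glutamine, at 1.21-fold (limma adjusted p = 0.0174). Its call ended after centring (adjusted p = 0.144), quantile normalization (0.248) or cyclic loess (0.108), and without wild-type replicate 1 (0.0543), wild-type replicate 2 (0.0556) or deletion replicate 1 (0.0511). The other subunits of that enzyme, GTF1 and PET112, had log2 changes of 0.20 and 0.12 and did not pass. ARC1, the cofactor of the MES1 and GUS1 products, had 0.00, GRS2, a second glycine enzyme gene, had 0.14, and AIM10, which encodes the mitochondrial proline enzyme, had 0.00.

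Mitochondrial translation factors were higher in 4 of 6 cases, with a median log2 change of 0.30, and 6 of 6 were higher without overlap, where 24.6% of all genes were called higher and 34.9% were higher without overlap. MEF2, an elongation factor G homolog that acts in ribosome recycling, had intensities of 2849, 2619 and 3206 in the deletion, against 1466, 1388 and 1433 in the wild-type. It rose 2.02-fold (limma adjusted p = 0.000294). IFM1, an initiation factor, rose 1.29-fold, TUF1, which delivers charged tRNA to the mitochondrial ribosome, 1.23-fold, and MEF1, the elongation factor of translocation, 1.23-fold. The call of IFM1 ended without wild-type replicate 1, wild-type replicate 2 or deletion replicate 1 (adjusted p of 0.0582 to 0.0618), and under each rescaling, with a log2 change of 0.27 by centring (adjusted p = 0.099), 0.20 by quantile normalization, at an adjusted p of 0.205, and 0.25 by cyclic loess, at 0.10. TUF1 was not called after centring (adjusted p = 0.0588). Calls in this list numbered 2 after centring, where 14.3% of all genes were called higher. With the replicate number as a block they numbered 6 of 6, where 35.3% of all genes were called higher.

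Of the cytosolic elongation genes 7 of 9 were measured. Limma called 0 of them, where 24.6% of all genes were called higher and 7.67% lower. At an unadjusted p under 0.05 there were also 0 genes, where 32.0% of all genes were higher and 10.9% lower. Their log2 changes ran from -0.10 for HYP2, the eIF5A gene, to 0.10 for CAM1, with a median of 0.02. TEF2 and EFT2 have near-identical copies, TEF1 and EFT1, so their probe sets may read both genes of each pair. After centring 1 of the 7 was called lower, where 12.9% of all genes were.

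A list of 5 genes covered the sensing of uncharged tRNA by Gcn2 and its control. In it GCN20, which acts with GCN1 to activate the kinase Gcn2, rose 1.13-fold (limma adjusted p = 0.0244), where 24.6% of all genes rose. This call ended in 11 of 16 alternatives, among them leaving out any single array (adjusted p of 0.0537 to 0.0896). Centring gave a log2 change of 0.07 (adjusted p = 0.345), with 0.10 by quantile normalization, at an adjusted p of 0.154, and 0.14 by cyclic loess, at 0.0556. GCN2 itself had a log2 change of 0.04. In tRNA maturation 4 of 27 measured genes rose and 1 fell, with a median log2 change of 0.01. These shares of 14.8% and 3.7% lie below the 24.6% and 7.67% of all genes. RPM2, the protein subunit of mitochondrial RNase P, had 6217, 6007 and 6893 in the deletion, against 3630.0, 4089 and 3584 in the wild-type, and rose 1.69-fold (adjusted p = 0.000871). POP7, a subunit of nuclear RNase P, rose 1.49-fold, LOS1, the tRNA exportin, 1.31-fold, and TAD2, a subunit of the tRNA adenosine deaminase, 1.23-fold. The other nuclear RNase P genes of the list were not called. POP5, POP8, POP6, RPP1 and POP1 had negative log2 changes, from -0.40 to -0.08. POP4, RPR2 and POP3 had positive ones, from 0.03 to 0.16. Calls of POP7 ended without wild-type replicate 1 (adjusted p = 0.0547), deletion replicate 1 (0.0516) or deletion replicate 2 (0.051), and that of TAD2 on leaving out wild-type replicate 1 or 3 or deletion replicate 1 or 2 (adjusted p between 0.0601 and 0.0749). In all, TAD2 lost its call in 8 of 16 alternatives. Those include centring (adjusted p = 0.0673), quantile normalization (0.0898), cyclic loess (0.087) and keeping unnamed probe sets in the fit (0.052). SEN54, a subunit of the tRNA splicing endonuclease named here after its value was seen, fell by 0.19 on the log2 scale (adjusted p = 0.0473) and was not called on leaving out any single array.

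**Figure D5:**
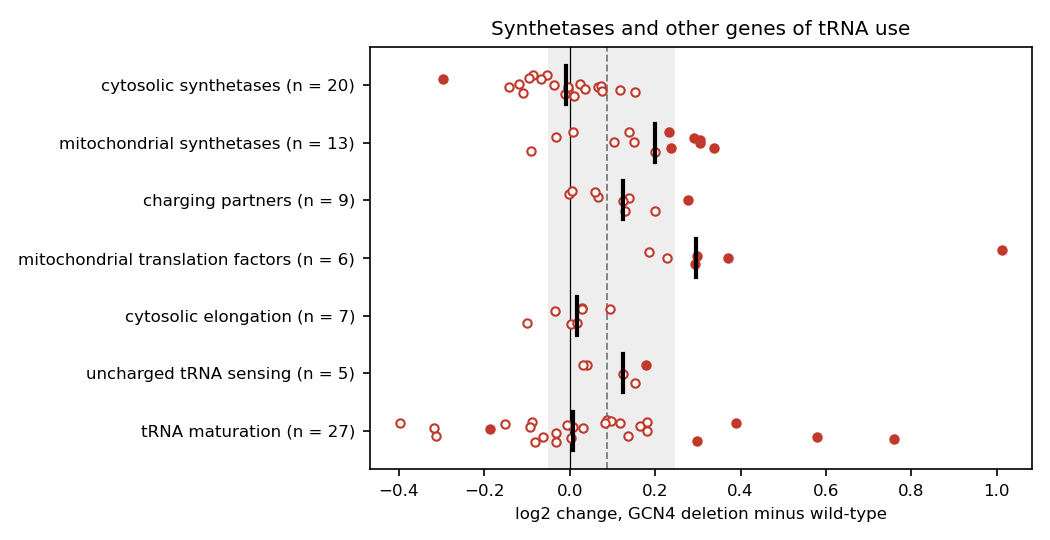
Log2 change (x axis, GCN4 deletion minus wild-type) of single genes in 7 gene lists, with filled points for an adjusted p under 0.05 and black bars for list medians; the grey band spans the middle of all genes, from the 25th to the 75th percentile (-0.05 to 0.24), and the dashed line is their median. The cytosolic synthetases and cytosolic elongation genes centre near 0, and the mitochondrial translation factors lie at 0.18 and above, with MEF2 at 1.01.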

How the data were processed

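Total RNA of 3 GCN4 deletion and 3 wild-type samples had been measured on Affymetrix arrays. The authors deposited normalised intensities on a linear scale, 9.03 to 35044 over the arrays. R 2.8.0, RMA and the affy package are listed in the submitters' processing notes, which do not say what each was used for. Intensities were converted to log2 without a pseudocount. Gene names came from the array platform's annotation, updated through the R64 gene table. Of several probe sets the one with the highest mean over 6 arrays was used, leaving 5449 genes. The linear model of limma 3.58.1 (R 4.3.3) with moderated variances and strain as its single term gave two-sided tests of deletion minus wild-type, and was tested on simulated data. The threshold was an adjusted p of 0.05. The number of arrays limits the precision. Figures were drawn with matplotlib 3.10.9.

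Members and lists were chosen with earlier results of these data known. Values by array are given for members that were called or whose groups did not overlap, and up to 4 called genes of other lists with the largest changes are named. Another gene with MSF1 as an alias, UPS2, was left out. Across genes, same-numbered arrays of the strains deviated together (r of 0.69, 0.53 and 0.71 after removing strain means), above a limit of 0.1. They were therefore treated as pairs in the fit with a replicate block and in the count of enzyme pairs within same-numbered arrays. The reported limma fit and the exact test of the pair ratios hold no replicate block, so they leave this pairing out. For synthetase genes, results of the fit with the block are printed beside a value whose call it alters. With the block 1 cytosolic gene was called lower and 1 higher, and 8 of 13 mitochondrial genes were called higher. In that fit 12.2% of all genes were lower and 35.3% higher. Arrays of different number gave r of -0.64 to 0.23. A planned search of promoters for the Gcn4 motif was not run, since promoter sequence was not used here.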

Additional observations from a re-analysis of the deposited data

How the results depend on the processing

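The direction of GCN4 and its call held in 16 of 16 alternatives, as did the calls of ILS1 and MSK1. Centring gave 3 lower cytosolic genes (median log2 change -0.111), 3 higher mitochondrial genes (median 0.0963), 0 higher charging partners, 0 higher sensing genes, 1 lower cytosolic elongation gene, 2 higher mitochondrial translation factors and 2 lower tRNA maturation genes. In that fit 12.9% of all genes were lower and 14.3% higher. Quantile normalization gave 2 lower cytosolic genes, 1 higher mitochondrial gene (median 0.0637), 7 pairs with a lower ratio (median -0.0281), 0 higher charging partners and 0 higher sensing genes. By quantile normalization 16.0% of all genes were lower and 12.7% higher. Cyclic loess gave 2 lower cytosolic genes, a mitochondrial median of 0.102, 9 pairs with a lower ratio (median -0.0502), and 0 higher charging partners and sensing genes. By cyclic loess 12.7% of all genes were lower and 15.9% higher. Array weights gave 3 lower cytosolic and 2 higher sensing genes. Fitting unnamed probe sets too gave 0 higher sensing and 0 lower tRNA maturation genes. The share of all genes called with array weights or with unnamed probe sets is not given here, so those counts have no background. The cause of these shifts was not tested. The replicate block gave 1 higher cytosolic gene, 2 higher charging partners and 3 lower tRNA maturation genes, and moved none of the other counts by over 1.5 times. Leaving out both arrays numbered 3, a setting chosen after seeing the data, gave a mitochondrial median of 0.154 and 0 higher sensing genes.

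Leaving out 1 array in turn gave 1 lower and 0 higher cytosolic genes each time, 4 to 5 higher mitochondrial genes, 12 to 13 pairs with a lower ratio (median -0.195 to -0.115), 0 to 1 higher charging partners, 3 to 5 mitochondrial translation factors, 0 sensing genes, and 2 to 5 higher and 0 lower tRNA maturation genes. Medians were -0.0623 (without deletion replicate 3) to 0.00849 for cytosolic and 0.156 to 0.216 for mitochondrial genes. These fits hold fewer arrays than the reported fit, and the share of all genes called in them is not given here. A call lost in such a fit is therefore not shown to be particular to its gene.

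None of the genes whose log2 change turned sign was called in either setting. After centring these were GRS1 (-0.0357), GUS1 (-0.0780), HTS1 (-0.0941), MES1 (-0.0684), TYS1 (-0.0291), YHR020W (-0.0281) and MSW1 (-0.0946). After quantile normalization they were HTS1 (-0.00945), MES1 (-0.0233), THS1 (0.0222), MSM1 (-0.0243), MSW1 (-0.125) and MSY1 (-0.00226), and after cyclic loess HTS1 (-0.00698), THS1 (0.00142) and MSW1 (-0.0970). Without both arrays numbered 3, HTS1 stood at -0.00299. Leaving out single arrays put GUS1 between -0.00941 and 0.0526, HTS1 between -0.0218 and 0.0278, MES1 between -0.00203 and 0.0581, THS1 between -0.0300 and 0.0304, VAS1 between -0.0630 and 0.0320, WRS1 between -0.0617 and 0.0564, DIA4 between -0.0941 and 0.0585 and MSW1 between -0.00769 and 0.0255.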
